A study of Homo sapiens with 17 samples.

Results

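The genes described are 9 components of the cytosolic and endosomal nucleic acid sensing pathways: STING1, CGAS, RIGI, IFIH1, MAVS, TBK1, IRF3, IRF7 and TLR3. Each was taken from the probe set, the group of array probes that reports 1 transcript, whose annotation carries that symbol and no other, and all 9 were found among 17958 genes measured. Every gene had 1 such probe set. CGAS had a further probe set shared with DDX43, which was not used.

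CGAS, the enzyme that binds cytosolic DNA, makes the cyclic dinucleotide cGAMP, and cGAMP activates STING1, an adaptor of the endoplasmic reticulum. RIGI and IFIH1 are helicases that bind viral RNA in the cytosol and signal through MAVS on mitochondria, and TLR3 binds double-stranded RNA in endosomes. These routes meet at the kinase TBK1, which phosphorylates the transcription factors IRF3 and IRF7, which in turn induce interferons. Loss of LKB1 is known to accompany low STING1 in some lung cancers.

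The study measured RNA from A549 and H2122, human non-small cell lung cancer lines that lack working LKB1, the kinase encoded by STK11. Cells of each line were stably transduced with a pBABE retrovirus that carried wild-type LKB1, the kinase-dead mutant K78I, or no insert, and were selected in 1.0 µg/mL puromycin for 2 weeks. Thus every group, controls included, carries the vector and its resistance gene. The labels give 5% serum for every group. The groups were A549 LKB1, A549 K78I and A549 pBABE with 3 arrays each, and H2122 LKB1 and H2122 K78I with 3 arrays each and H2122 pBABE with 2. The labels do not say whether replicates came from separate cultures or transductions, so p-values measure the spread between these arrays, which may be technical. With 2 or 3 arrays a group, small differences are measured loosely. All levels are log2 values made by RMA, and levels of different genes are not compared, because probe sets differ in brightness. No detection calls were used, so a low level cannot be told from background.

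Some arrays have labels in conflict. The source name of H2122 pBABE replicate 2 says LKB1, that of H2122 LKB1 replicate 3 says K78I and that of H2122 K78I replicate 3 says pBABE, while the title, the description and the transduction entry of each match one another. The titles were followed. STK11, the introduced gene, is also detected when it encodes K78I. Its level was 11.20, 11.35 and 11.26 in H2122 LKB1, 11.27, 11.31 and 11.26 in H2122 K78I, and 6.33 and 6.22 in H2122 pBABE. These 8 arrays fit their titles. In A549 it was 9.42, 10.23 and 9.62 in LKB1, 10.54, 7.14 and 10.42 in K78I, and 6.88, 7.38 and 10.52 in pBABE. The array labelled A549 K78I replicate 2 and the array labelled A549 pBABE replicate 3 therefore go against their labels. They were kept in the groups their labels give. STK11 does not tell wild-type LKB1 from K78I, so what the array labelled A549 pBABE replicate 3 carries cannot be told from it. Without both arrays the A549 differences between LKB1 and controls were 0.38 for STING1, 0.31 for CGAS, 0.57 for RIGI, 0.35 for IFIH1, 0.22 for MAVS, 0.073 for TBK1, -0.18 for IRF3, -0.0067 for IRF7 and 0.26 for TLR3 in log2 units, and RIGI was the only one of the 9 to pass in limma, as it was with them. The difference between K78I and pBABE passed for 0 of the 9 without them.

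Array medians lay between 5.62 and 5.73. The epithelial keratin and adhesion markers averaged 9.58 to 10.24 in A549 arrays and 11.14 to 11.51 in H2122 arrays, whereas leukocyte markers averaged 3.69 to 3.94 in A549 and 3.90 to 4.13 in H2122. Fibroblast markers averaged 3.61 to 4.04 in A549 and 3.59 to 3.89 in H2122, and endothelial markers 3.73 to 4.01 and 4.03 to 4.38 in the same lines. The mean of 21 cell cycle genes was low in the arrays labelled A549 K78I replicate 2, A549 pBABE replicate 1 and H2122 pBABE replicate 2, by 0.76, 0.35 and 1.39 log2 units below their line's mean. All 3 are controls. Single markers passed the test of LKB1 against controls: in A549 PDGFRA (0.78 log2 units), 1 of 5 fibroblast markers, and CDH1 (-1.17), 1 of 6 epithelial markers, and in H2122 CSF1R (0.60), 1 of 6 leukocyte markers, and PECAM1 (-0.79), 1 of 4 endothelial markers. Their part in the results below was not tested.

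The promoters of 5 of the 9 genes could be matched by symbol in a RefSeq table of build GRCh38.p14, and 3 are printed because RIGI and TLR3 are the members that passed the test for LKB1 and IFIH1 is the other RNA helicase. Each is the 250 bases before the annotated start, on the gene's own strand: chr9:32526197-32526446 on the minus strand for RIGI, chr2:162318685-162318934 on the minus strand for IFIH1 and chr4:186068906-186069155 on the plus strand for TLR3. Capitals mark matches, on either strand, to 2 copies of GAAA separated by any 2 bases, a form of the interferon-stimulated response element, or by any 1 base, a closer spacing that was added after the sequences had been seen.
RIGI: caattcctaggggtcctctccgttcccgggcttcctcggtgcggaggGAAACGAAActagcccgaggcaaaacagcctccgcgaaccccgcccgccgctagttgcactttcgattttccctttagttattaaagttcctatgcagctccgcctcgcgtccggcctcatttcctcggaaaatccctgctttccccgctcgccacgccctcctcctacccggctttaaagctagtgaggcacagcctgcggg
IFIH1: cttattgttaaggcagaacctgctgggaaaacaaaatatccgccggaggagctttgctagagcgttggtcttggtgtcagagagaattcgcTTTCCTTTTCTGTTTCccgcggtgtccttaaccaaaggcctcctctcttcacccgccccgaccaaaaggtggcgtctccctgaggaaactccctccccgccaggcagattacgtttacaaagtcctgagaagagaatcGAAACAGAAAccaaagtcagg
TLR3: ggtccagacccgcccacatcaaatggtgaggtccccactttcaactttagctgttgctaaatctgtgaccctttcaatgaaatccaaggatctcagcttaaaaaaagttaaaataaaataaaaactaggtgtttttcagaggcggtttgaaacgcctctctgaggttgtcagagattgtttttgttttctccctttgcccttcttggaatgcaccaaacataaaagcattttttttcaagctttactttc
RIGI holds 1 match with the 1-base gap, which begins 203 bases before the start, and none with the 2-base gap. IFIH1 holds 3 matches with the 2-base gap, which begin 159, 153 and 21 bases before the start, the first 2 overlapping on the reverse strand. TLR3 holds neither motif in this window, nor do MAVS and TBK1. Of 27305 promoters of the same length, 3.07% hold the form with the 2-base gap, 2.76% the form with the 1-base gap and 5.61% hold at least 1 of them. The cyclic AMP response element TGACGTCA, found in 1.77% of promoters, is in none of the 5. The promoters also differ in CG dinucleotides, the sites of DNA methylation: 22 in RIGI, 12 in IFIH1, 28 in MAVS, 27 in TBK1 and 3 in TLR3, where the median promoter holds 11. A match is a run of letters and not a measured binding site.

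LKB1 was followed by higher RIGI in A549 and higher TLR3 in H2122, and by no change past the test in STING1, CGAS or the shared signalling genes in either line. Each line's LKB1 arrays were compared with the equal-weight mean of K78I and pBABE, using limma fitted to all 17 arrays and 17958 genes with Benjamini-Hochberg adjustment and a threshold of 0.05. In A549 1 of the 9 genes rose and 0 fell, where 8.44% of all genes passed, 5.49% higher and 2.95% lower. In H2122 1 rose and 0 fell, where 7.28% of all genes passed, 4.99% higher and 2.29% lower. A count of 1 in 9 is near these background shares. The median difference of the 9 genes was 0.29 in A549 and 0.019 in H2122, beside -0.021 and -0.036 over all genes in the same lines. In bulk RNA, fewer cells that express a gene and less RNA per cell cannot be told apart.

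**Figure D1:**
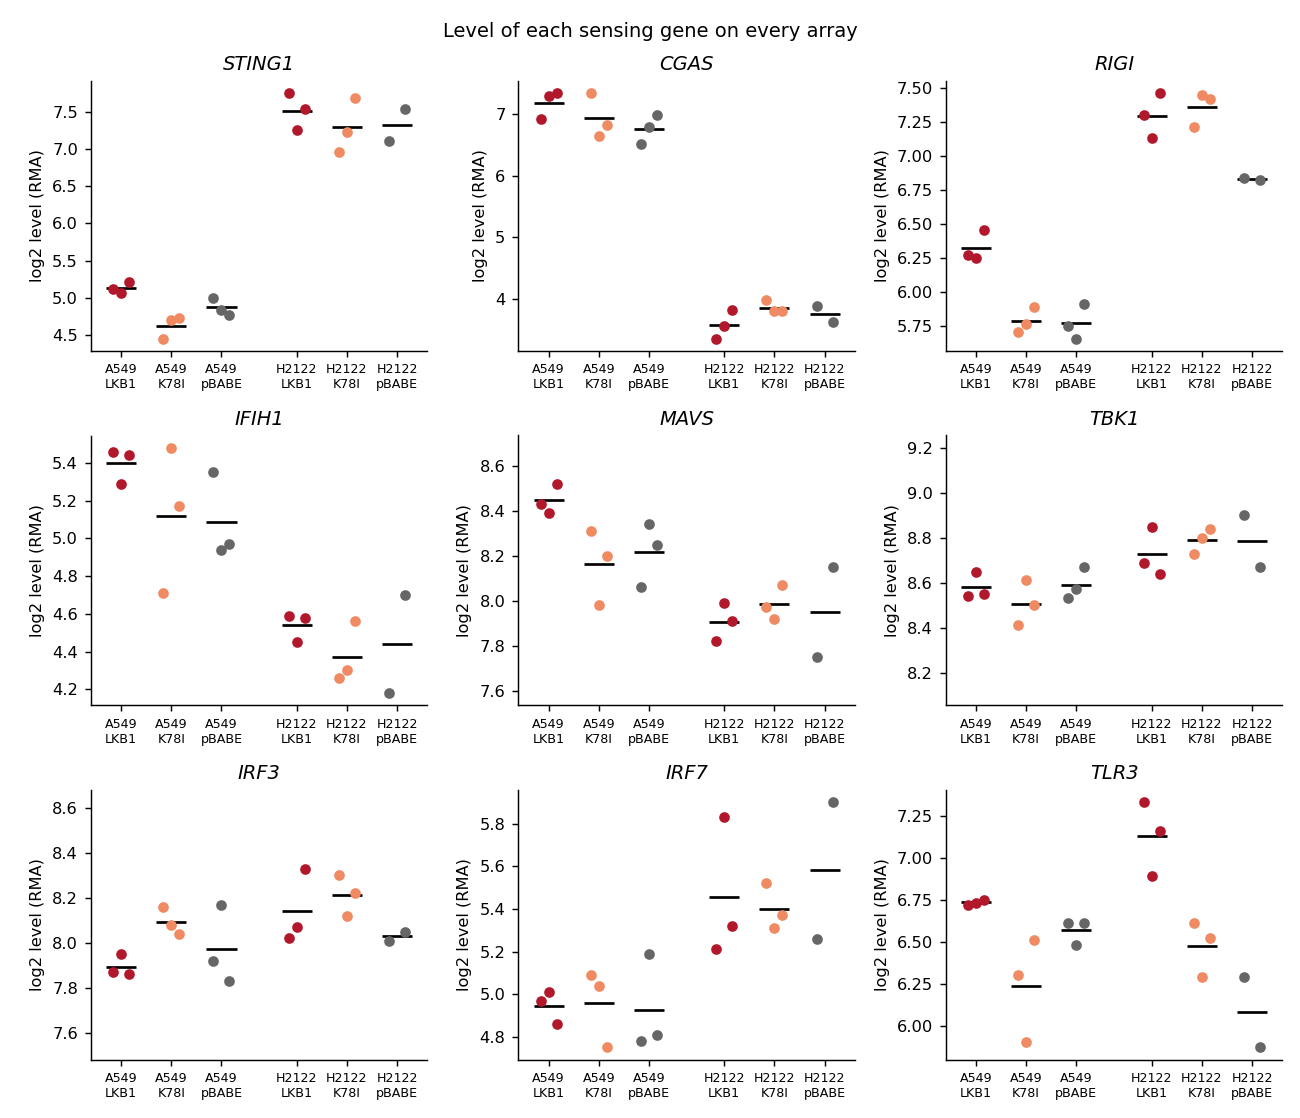
Level of each of the 9 genes on every array (vertical axis, log2 RMA level, scaled for each gene), in groups by line and construct; points are arrays and bars are group means. RIGI in A549 LKB1 lies between 6.25 and 6.46, above all 6 A549 controls, and TLR3 in H2122 LKB1 lies between 6.89 and 7.33, above all 5 H2122 controls.

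RIGI encodes RIG-I, the helicase that recognises short double-stranded RNA with a 5' triphosphate. Its level was 6.27, 6.25 and 6.46 in A549 LKB1, 5.71, 5.77 and 5.89 in A549 K78I, and 5.75, 5.66 and 5.91 in A549 pBABE. All 3 LKB1 arrays lay above all 6 control arrays, and the K78I and pBABE arrays covered the same range. RIGI rose by 0.54 ± 0.099 log2 units (SE; 95% interval 0.33 to 0.76), or 1.46-fold, with a limma adjusted p of 0.00283. The difference was 0.54 ± 0.11 against K78I (adjusted p 0.0129) and 0.55 ± 0.11 against pBABE (adjusted p 0.00968) in limma, and of the 9 genes only RIGI passed in each of these, where 5.25% and 5.5% of all genes passed. Without LKB1 replicate 3 neither held, with adjusted p 0.0794 and 0.0623, and without pBABE replicate 2 the second was lost (0.0592). Against both controls together the call held in all 29 alternatives, with differences from 0.46 to 0.60. It was 0.57 without the arrays labelled A549 K78I replicate 2 and pBABE replicate 3 (adjusted p 0.00336), and 0.53 without the controls low in cell cycle genes (adjusted p 0.00857).

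In H2122 RIGI did not pass against the 2 control groups together. Its level was 7.30, 7.13 and 7.46 in LKB1, 7.21, 7.45 and 7.42 in K78I, and 6.84 and 6.82 in pBABE. The LKB1 and K78I arrays overlapped fully, and both groups lay above pBABE. LKB1 minus controls was 0.20 ± 0.10 (adjusted p 0.317), LKB1 minus K78I was -0.062 ± 0.11 (adjusted p 0.879) and LKB1 minus pBABE was 0.46 ± 0.13 (adjusted p 0.0466). The last passed narrowly beside 5.77% of all genes, did not pass in 21 of 29 alternatives (in 1 of them, with source names, the sign turned), and rests on 2 pBABE arrays, of which replicate 2 has a conflicting source name and low cell cycle genes. K78I minus pBABE was 0.53 ± 0.13 with an unadjusted p of 0.000967 and an adjusted p of 0.353. The difference between the RIGI effects of the lines was 0.34 ± 0.14 (A549 minus H2122), which did not pass (adjusted p 0.261).

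TLR3 is the endosomal receptor for double-stranded RNA and signals through the adaptor TICAM1. In H2122 its level was 7.33, 6.89 and 7.16 in LKB1, 6.61, 6.29 and 6.52 in K78I, and 6.29 and 5.87 in pBABE. Each LKB1 array lay above every control array. TLR3 rose by 0.85 ± 0.15 log2 units (95% interval 0.54 to 1.16), or 1.80-fold, with a limma adjusted p of 0.00197. The difference was 0.65 ± 0.16 against K78I (adjusted p 0.0346; 3.89% of all genes passed) and 1.05 ± 0.18 against pBABE (adjusted p 0.00279) in limma. Without the 3 arrays in label conflict it was 0.74 (adjusted p 0.0714). With groups from the source names it was 0.15 (adjusted p 0.889), but STK11 goes against the source names of H2122 pBABE replicate 2 (6.22) and H2122 K78I replicate 3 (11.26), and it cannot decide for H2122 LKB1 replicate 3. It passed in the other 27 alternatives, and was 0.75 without the controls low in cell cycle genes (adjusted p 0.00227).

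Against each control alone, the H2122 TLR3 call was less steady. The K78I comparison was lost without A549 LKB1 replicate 3 (adjusted p 0.0518), H2122 LKB1 replicate 1 (0.159) or 3 (0.114), or H2122 K78I replicate 2 (0.148) or 3 (0.111). The pBABE comparison was lost without pBABE replicate 2 (0.0584). In A549 TLR3 was 6.72, 6.73 and 6.75 in LKB1, 6.30, 5.90 and 6.51 in K78I, and 6.61, 6.48 and 6.61 in pBABE. The LKB1 arrays again lay above all controls, by a narrower gap, and the difference of 0.33 ± 0.14 did not pass (adjusted p 0.172). The effect of LKB1 differed between lines by -0.52 ± 0.20 (A549 minus H2122), and this difference did not pass either (adjusted p 0.224). Averaged over lines, TLR3 rose by 0.59 ± 0.10 (adjusted p 0.00117) and RIGI by 0.37 ± 0.072 (adjusted p 0.00284), the 2 of 9 that passed in limma where 13.6% of all genes did.

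STING1 is the member with which LKB1 loss has been linked. Its level was 5.11, 5.06 and 5.21 in A549 LKB1, 4.45, 4.70 and 4.72 in A549 K78I, and 5.00, 4.84 and 4.77 in A549 pBABE. The 3 LKB1 arrays were the highest of the line, the nearest control being pBABE replicate 1 at 5.00. The difference from both controls was 0.38 ± 0.15 (95% interval 0.054 to 0.71), or 1.30-fold. It did not pass after adjustment over all genes (unadjusted p 0.0252, adjusted p 0.153). Against K78I the difference was 0.50 ± 0.18 (adjusted p 0.123), and against pBABE it was 0.26 ± 0.18 (adjusted p 0.512). Over 29 alternatives the A549 difference ranged from 0.31 to 0.43 and passed in 1, the fit with array quality weights (0.41, adjusted p 0.0276).

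In H2122 STING1 was 7.75, 7.26 and 7.54 in LKB1, 6.96, 7.23 and 7.68 in K78I, and 7.11 and 7.54 in pBABE. The groups overlapped, and the difference was 0.20 ± 0.16 (95% interval -0.14 to 0.54; adjusted p 0.573). The interval holds both no difference and differences of up to 0.54. Averaged over lines it was 0.29 ± 0.11 (adjusted p 0.0977), and it passed in 4 of 28 alternatives, among them leaving out H2122 K78I replicate 3 (adjusted p 0.0353).

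CGAS was 6.92, 7.29 and 7.34 in A549 LKB1, 7.34, 6.65 and 6.83 in A549 K78I, and 6.51, 6.80 and 6.99 in A549 pBABE. In H2122 it was 3.36, 3.57 and 3.82 in LKB1, 3.98, 3.81 and 3.80 in K78I, and 3.89 and 3.63 in pBABE. Both lines showed overlap between groups, and the differences ran in opposite directions, 0.33 ± 0.16 in A549 (adjusted p 0.254) and -0.23 ± 0.17 in H2122 (adjusted p 0.54). Their difference, 0.56 ± 0.23, did not pass (adjusted p 0.26). IFIH1, which encodes the long double-stranded RNA sensor MDA5, was 5.46, 5.29 and 5.44 in A549 LKB1, 4.71, 5.48 and 5.17 in A549 K78I, and 5.35, 4.94 and 4.97 in A549 pBABE. K78I alone covered the whole range of the LKB1 arrays, and the difference of 0.29 ± 0.16 did not pass (adjusted p 0.311). Without the controls low in cell cycle genes it was 0.45 and passed (adjusted p 0.0283). In H2122 IFIH1 lay between 4.45 and 4.59 in LKB1 and between 4.18 and 4.70 in controls, with a difference of 0.13 ± 0.17 (adjusted p 0.766).

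None of the genes downstream of the sensors passed in either line in the main fit, though MAVS passed in A549 with array quality weights. MAVS, the mitochondrial adaptor, was 8.43, 8.39 and 8.52 in A549 LKB1, 8.31, 7.98 and 8.20 in K78I, and 8.06, 8.34 and 8.25 in pBABE. The LKB1 arrays lay above every control, yet the difference of 0.26 ± 0.11 did not pass (adjusted p 0.176), and in H2122, where LKB1 arrays lay between 7.82 and 7.99 and controls between 7.75 and 8.15, it was -0.062 ± 0.11 (adjusted p 0.859). TBK1, the kinase on which the pathways converge, stayed between 8.41 and 8.67 over the 9 A549 arrays and between 8.64 and 8.90 over the 8 H2122 arrays. Its LKB1 differences were 0.028 ± 0.087 (adjusted p 0.906) in A549 and -0.058 ± 0.091 (adjusted p 0.83) in H2122. IRF3, the factor present before infection, lay between 7.86 and 7.95 in A549 LKB1 and between 7.83 and 8.17 in A549 controls, and between 8.02 and 8.33 in H2122 LKB1 and between 8.01 and 8.30 in H2122 controls. It differed by -0.14 ± 0.098 in A549 (adjusted p 0.447) and 0.019 ± 0.10 in H2122 (adjusted p 0.96). IRF7, itself induced by interferon, lay between 4.86 and 5.01 in A549 LKB1 and between 4.75 and 5.19 in A549 controls, and between 5.21 and 5.83 in H2122 LKB1 and between 5.26 and 5.90 in H2122 controls. It differed by 0.0028 ± 0.16 (adjusted p 0.996) and -0.033 ± 0.17 (adjusted p 0.956) in the same lines.

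**Figure D2:**
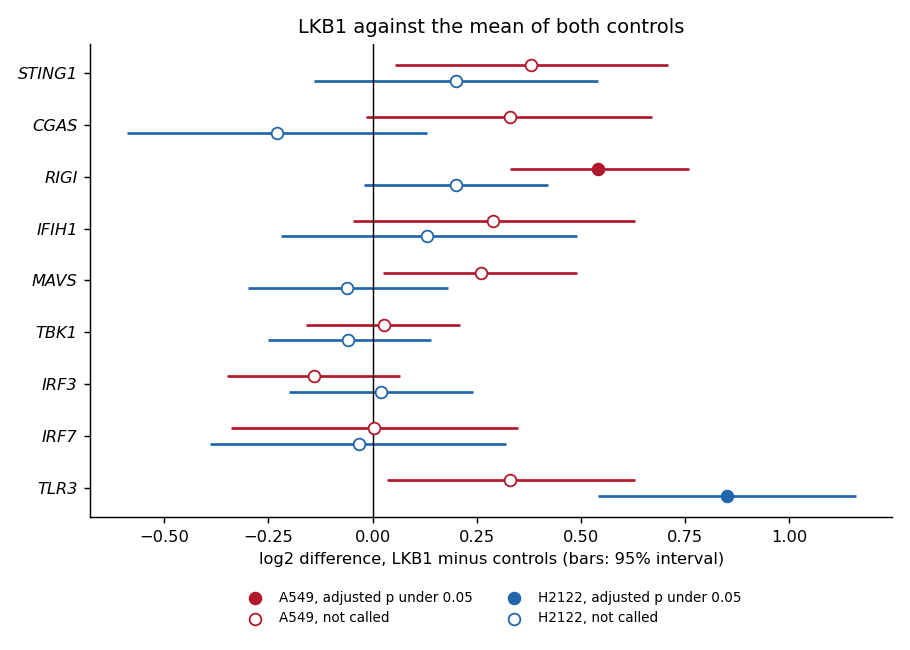
Difference of LKB1 from the mean of both controls (horizontal axis, log2) for each gene in A549 (red) and H2122 (blue), with 95% intervals from limma that are not adjusted for multiple tests; filled points passed an adjusted p of 0.05. Only RIGI in A549, at 0.54, and TLR3 in H2122, at 0.85, are filled.

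Array order and unadjusted p were also counted. In A549 STING1, RIGI, MAVS and TLR3, 4 of 9, had every LKB1 array above every control array, against 8.46% of all genes. Unadjusted p was under 0.05 for these 4 of 9, against 21.8% of all genes. In H2122 only TLR3 among the 9 had no overlap, against 8.54% of all genes. The 9 genes were chosen with earlier results of these arrays known, so these counts are a description. Between the lines 0 of 9 differed in effect after adjustment, where 3.6% of all genes did, and 3 of 9 had an unadjusted p under 0.05, where 15% of all genes did.

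The kinase-dead and empty-vector arrays of a line were compared to see how far the members varied between controls. No member passed in limma in either line, and 0% of all genes did. In A549 leaving out any 1 array gave 0 to 2 genes, and without the 2 arrays whose STK11 opposes the label 35 passed, none of them a member. In H2122 the 0 was not steady either, but leaving out a pBABE array leaves that group with a single array, so no count is given. At an unadjusted p under 0.05, 0 of 9 members differed in A549 and 2 of 9, RIGI and TLR3, in H2122, where 2.63% and 7.02% of all genes did. TLR3 in H2122 was 0.39 ± 0.18 higher in K78I than in pBABE (adjusted p 0.708). For both genes the pBABE arrays lay at the low end of the line. Array order also separated some controls. In A549 every K78I array lay below every pBABE array for STING1, a difference of -0.24 ± 0.18, beside 0.26 ± 0.18 for LKB1 minus pBABE. In H2122 every K78I array lay above every pBABE array for RIGI and IRF3. With so few arrays this order is a description. The share of all genes ordered in this way is not given here, so nothing particular to these members is read from it.

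The largest differences among the 9 genes lay between the lines. Without active LKB1, A549 had much less STING1 and more CGAS than H2122, so each line was low in a different partner of the DNA-sensing pair. Means below are over all control arrays of a line, while differences and tests weight its K78I and pBABE groups equally. STING1 averaged 4.75 ± 0.18 in 6 A549 controls and 7.31 ± 0.30 in 5 H2122 controls (SD), a difference of -2.56 ± 0.13 log2 units, or 5.91-fold lower in A549 (limma adjusted p 4.2e-10). CGAS averaged 6.85 ± 0.29 in A549 controls and 3.82 ± 0.13 in H2122 controls, a difference of 3.04 ± 0.14 (limma adjusted p 9.57e-11). The CGAS level in H2122 may be background, so no fold is given for it. No array of either line overlapped the other line for either gene, LKB1 arrays included: STING1 did not exceed 5.21 in A549 nor fall under 6.96 in H2122, and CGAS was at least 6.51 in A549 and at most 3.98 in H2122.

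The RNA helicases also split by line. RIGI averaged 5.78 ± 0.099 in A549 controls and 7.15 ± 0.30 in H2122 controls, and with groups weighted equally it was 1.31 ± 0.086 log2 units or 2.48-fold lower in A549 (limma adjusted p 7.45e-09). The highest A549 LKB1 array, at 6.46, was still under the lowest H2122 array, at 6.82. IFIH1 went the other way, with 5.10 ± 0.28 in A549 controls and 4.40 ± 0.22 in H2122 controls, a difference of 0.69 ± 0.14 (limma adjusted p 0.000772). IRF7 was 0.55 ± 0.14 lower in A549 (adjusted p 0.00509) and TBK1 0.24 ± 0.076 lower (adjusted p 0.0201). MAVS (0.22 ± 0.094, adjusted p 0.0724), IRF3 (-0.086, adjusted p 0.471) and TLR3 (0.12 ± 0.12, adjusted p 0.474) did not pass. In all, 2 of 9 were higher and 4 of 9 lower in A549, where 20.3% and 20.1% of all genes were. The calls for STING1, CGAS, RIGI and IFIH1 held in all 28 alternatives. MAVS gained a call in some, among them array weights, source names, and leaving out A549 K78I replicate 2 or A549 pBABE replicate 1. TBK1 lost its call without H2122 pBABE replicate 1 (adjusted p 0.105), and IRF7 without the 3 arrays in label conflict (0.0755) and without the controls low in cell cycle genes (0.0707). Each line is 1 cell line, so these differences belong to A549 and H2122 and not to a class of tumours.

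**Figure D3:**
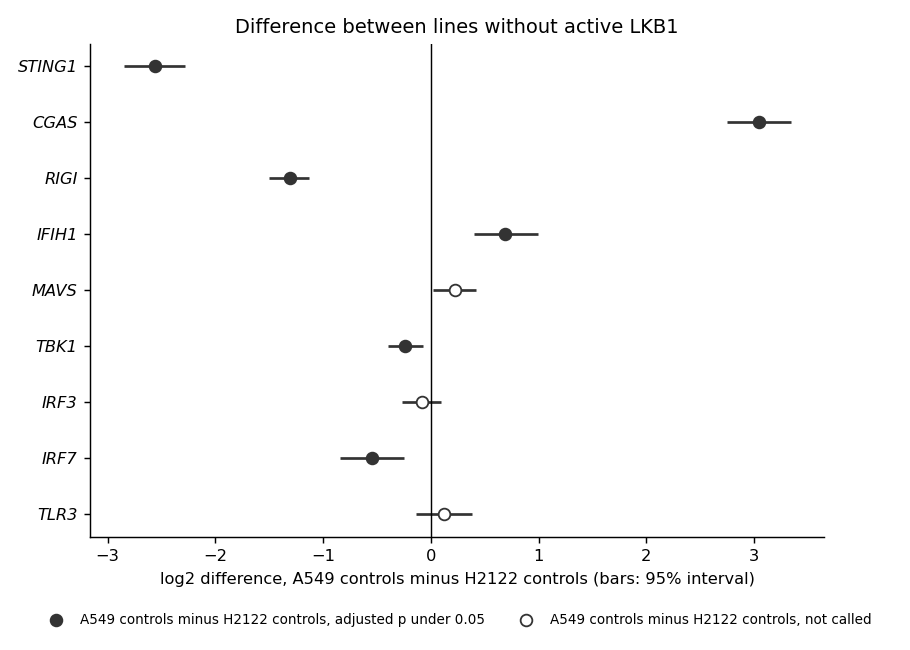
Difference of the A549 controls from the H2122 controls (horizontal axis, log2) for each gene, with 95% intervals from limma; filled points passed an adjusted p of 0.05. CGAS stands at 3.04 and STING1 at -2.56, and the other 7 genes lie between -1.31 and 0.69.

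Around the 9 genes, lists of pathway partners were examined, written with earlier results of these arrays known. With LKB1, 5.49% of all genes passed higher and 2.95% lower in A549, and 4.99% and 2.29% in H2122. A count of 0 or 1 in a list of 8 to 15 genes, here and below, is near these shares. Of 14 measured genes of DNA sensing and cGAMP handling, 1 rose and 0 fell with LKB1 in each line. In A549 it was IFI16, a nuclear DNA sensor that acts with STING1, which lay between 5.40 and 5.68 in LKB1 arrays and between 4.46 and 5.01 in controls. It rose by 0.86 ± 0.15 (limma adjusted p 0.00191), and in H2122 the difference was 0.18 ± 0.15 (adjusted p 0.616). In H2122 it was LRRC8A, a subunit of the volume-regulated channel that can carry cGAMP, at 10.20 to 10.34 in LKB1 arrays and 8.87 to 9.58 in controls. LRRC8A rose by 1.18 ± 0.14 (limma adjusted p 8.97e-05), against 0.016 ± 0.13 in A549, and the effects differed between lines by -1.17 ± 0.19 (A549 minus H2122, adjusted p 0.00352). Both LRRC8A calls were lost with groups from source names (adjusted p 0.596 and 0.694). Between the control arrays of the lines, 3 of these 14 genes were higher and 3 lower in A549, where 20.3% and 20.1% of all genes were. IFI16, like STING1, was among the lower, at -5.43 ± 0.13 (A549 minus H2122, limma adjusted p 5.84e-14).

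On the endosomal route, 0 of 11 genes rose and 1 fell in A549, and 0 moved in H2122. The 1 was UNC93B1, the chaperone that carries TLR3 and its relatives to endosomes. It lay between 7.41 and 8.03 in A549 LKB1 and between 8.55 and 9.93 in A549 controls, and it fell by 1.40 ± 0.24 (limma adjusted p 0.00167), or 2.65-fold. In H2122 it lay between 8.72 and 8.74 in LKB1 and between 9.18 and 9.49 in controls, a difference of -0.56 ± 0.25 that did not pass (adjusted p 0.224). UNC93B1 had 3 probe sets with its symbol alone, and these values are from the brightest. It has closely related pseudogenes, and whether their RNA reaches this probe set was not tested. TICAM1, the TLR3 adaptor, did not pass against either control in either line, with differences from 0.091 to 0.31.

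Of 15 cofactors of RNA sensing, such as TRIM25, DHX58 and ADAR, 0 passed in either direction in either line. Of 15 genes of STING1 transport and turnover, 1 rose in A549 and 0 in H2122. It was ZDHHC7, one of the palmitoyltransferases that modify STING1, at 0.34 ± 0.093 (limma adjusted p 0.037), and the call was lost in 12 of 29 alternatives. Of 14 kinases and transcription factors, 1 rose in each line. In A549 it was IRF5 (0.47 ± 0.13, limma adjusted p 0.0328), lost in 11 of 29 alternatives, and in H2122 it was OPTN, a ubiquitin-binding adaptor of TBK1 (0.91 ± 0.14, limma adjusted p 0.000873). Between the controls of the lines 1 of these 14 was higher and 3 were lower in A549, where 20.3% and 20.1% of all genes were. IKBKE, the kinase nearest to TBK1, was 1.80 ± 0.18 lower in A549 controls than in H2122 controls (limma adjusted p 1.09e-06). Calls for ZDHHC7 were lost when A549 LKB1 replicate 1 or 3, A549 K78I replicate 1, A549 pBABE replicate 1 or 2, or H2122 K78I replicate 2 or 3 was left out. Calls for IRF5 were lost without any 1 of the 3 A549 LKB1 arrays, A549 K78I replicate 2 or A549 pBABE replicate 1 or 2.

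Interferons and the cytokines they go with showed little. IFNB1, the interferon that IRF3 induces, stayed between 2.84 and 3.27 on all 17 arrays, with differences of -0.092 ± 0.11 in A549 (adjusted p 0.708) and 0.029 ± 0.11 in H2122 (adjusted p 0.943). This level may be background, where a change in IFNB1 might not be seen. Of 8 measured interferons and cytokines 0 passed in A549. In H2122 1 rose, TNF (0.55 ± 0.14, limma adjusted p 0.0225), and its call was lost when any 1 of these H2122 arrays was left out: LKB1 replicates 1 and 3, K78I replicate 3 and pBABE replicate 2.

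Interferon-stimulated genes are the usual targets of these pathways. Of 33 measured, 8 rose and 1 fell in A549, and 6 rose and 1 fell in H2122, beside the background shares of 5.49% higher and 2.95% lower in A549 and 4.99% and 2.29% in H2122. The list's median difference was 0.14 in A549 and -0.0097 in H2122, beside -0.021 and -0.036 over all genes. Its mean level was 5.66, 5.60 and 5.64 in A549 LKB1, 5.39, 5.35 and 5.36 in A549 K78I, and 5.45, 5.47 and 5.48 in A549 pBABE. In H2122 it was 5.87, 5.82 and 5.81 in LKB1, 5.73, 5.67 and 5.73 in K78I, and 5.66 and 5.73 in pBABE. In each line the LKB1 arrays were the highest, with K78I below pBABE in A549. Without the controls low in cell cycle genes 9 rose and 2 fell in A549, and 7 rose and 2 fell in H2122. Without the 3 arrays in label conflict 8 rose and 0 fell in A549, but 2 rose and 0 fell in H2122. Calls over all genes also became fewer in that fit. They were 6.83% in A549 and 2.35% in H2122, against 8.44% and 7.28% with all arrays.

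Called in both lines were 4 genes, in A549 alone 5, in H2122 alone 3 and in neither 21. The shared 4 were SAMD9 and SAMD9L, a pair of antiviral growth regulators, SP100, a nuclear body protein, and IFIT3, a binding partner of other IFIT proteins. SAMD9L rose by 1.37 ± 0.25 in A549 and 1.77 ± 0.26 in H2122 (limma adjusted p 0.00296 and 0.000632), and SAMD9 by 1.69 ± 0.29 and 1.43 ± 0.30 (limma adjusted p 0.00168 and 0.00762). SP100 rose by 0.77 ± 0.13 in A549 and 0.71 ± 0.13 in H2122 (limma adjusted p 0.00151 and 0.00395). IFIT3 was weaker, at 0.47 ± 0.14 and 0.55 ± 0.14 (limma adjusted p 0.0474 and 0.0263), and lost its A549 call in 16 of 28 alternatives and its H2122 call in 8. SAMD9 lost its H2122 call without LKB1 replicate 1 (adjusted p 0.0562).

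Other genes of the list were called in 1 line. PARP9, a mono-ADP-ribosyltransferase subunit, lay between 6.66 and 7.02 in A549 LKB1 and between 5.51 and 5.97 in A549 controls, and rose by 1.09 ± 0.13 (limma adjusted p 9.2e-05). In H2122 it differed by 0.19 ± 0.13 (adjusted p 0.515), and the effects differed between lines by 0.90 ± 0.19 (limma adjusted p 0.0142), which did not hold without A549 LKB1 replicate 3 (0.0572). PARP14 rose by 0.76 ± 0.12 in A549 (limma adjusted p 0.000995), and IFI44 by 0.78 ± 0.16 in H2122 (limma adjusted p 0.00706). Genes that fell, named after their values were seen, were ISG20, an exonuclease, in A549 (-1.53 ± 0.43, limma adjusted p 0.0393) and OAS1, an activator of RNase L, in H2122 (-1.26 ± 0.34, limma adjusted p 0.0336). Their calls were lost in 14 and 8 of 29 alternatives. Most of the list, among it MX1, RSAD2 and ISG15, passed in neither line.

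**Figure D4:**
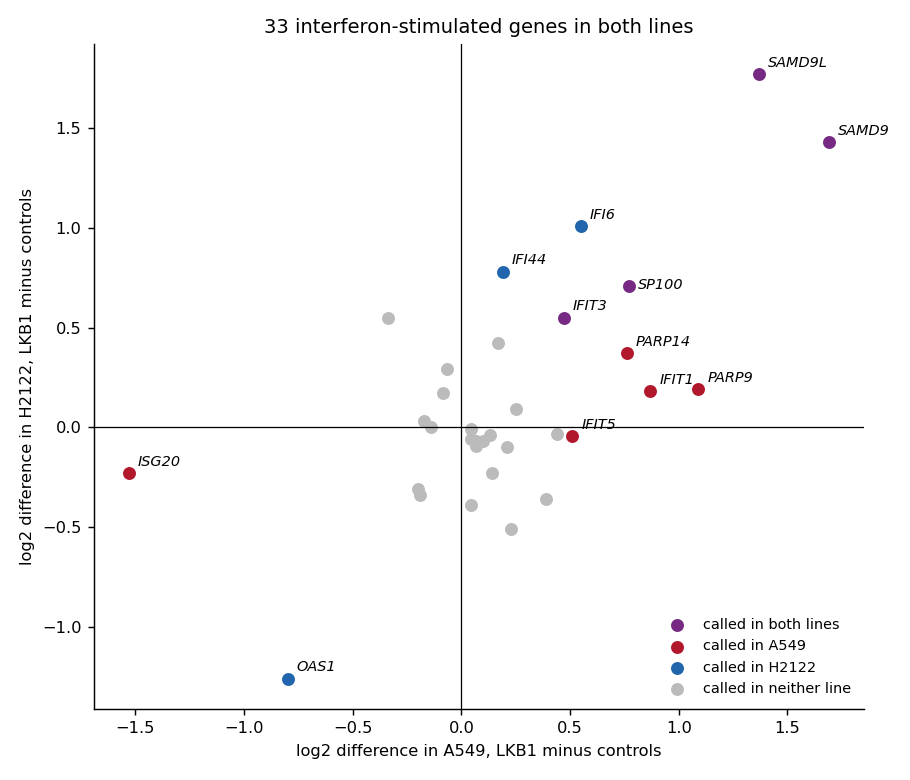
LKB1 minus controls (log2) in A549 (horizontal axis) against H2122 (vertical axis) for 33 interferon-stimulated genes; points are genes, coloured by the line or lines in which the adjusted p was under 0.05. SAMD9 (1.69, 1.43) and SAMD9L (1.37, 1.77) stand at the upper right, and ISG20 at -1.53 in A549 stands at the left. Both axes are fitted against their own line's controls.

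Enzymes that add or remove DNA or histone methylation, and their partner proteins, were examined because LKB1 loss has been linked with silenced STING1. Among them KDM5A, KDM5B and KDM5C remove histone methylation, and TET1, TET2 and TET3 act against DNA methylation. Of 13 measured, 0 passed in either direction in either line. DNMT1, the maintenance DNA methyltransferase, differed by 0.099 ± 0.24 in A549 (adjusted p 0.876) and 0.062 ± 0.25 in H2122 (adjusted p 0.945), and EZH2, the histone methyltransferase, by 0.063 ± 0.19 (adjusted p 0.904) and -0.075 ± 0.20 (adjusted p 0.909). RNA level does not measure methylation, and no methylation was measured here.

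The genes most like a member were found by Pearson correlation over 17 arrays after each line's mean was subtracted, as a description without a test. The arrays share lines and constructs, so genes moved by LKB1 correlate for that alone. RIGI was most like IFIT5 (r 0.92), an interferon-stimulated RNA-binding protein, followed by RANBP17 (0.88), MEX3D (0.88), LRRN2 (0.87) and HOXD11 (0.86). TLR3 was most like PDLIM1 (0.93), TMEM237 (0.93), LPCAT2 (0.92), SUPT3H (0.92) and CCM2 (0.91), none of them on the lists above. STING1 was most like PLXDC2 (0.80), IFIH1 (0.75), CETN3 (0.74), DNAJC13 (0.74) and APOL6 (0.73). IFIH1 was thus the member nearest to STING1, while STING1 and CGAS had r -0.21 and RIGI and TLR3 had 0.56.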

How the data were processed

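Each probe set has a log2 level that the authors made and deposited. The submitters' processing notes name RMA and Affymetrix Expression Console 1.1. The labels' protocols give 130 ng of RNA per array. RMA makes array distributions alike, so a shift of most genes would not be seen. The genome build was not given in the sources used here. Of 33297 probe sets, 19181 had 1 symbol, 2055 several and 12061 were not listed. The brightest probe set per gene was kept, which for UNC93B1 and TNF was 1 of 3.

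Groups followed sample titles. limma 3.58.1 in R 4.3.3 fitted 6 groups with lmFit and eBayes (residual df 11, prior df 3.8). The 9 members, the lists and the rule for names were chosen with earlier results of these data known. Named were all 9 members, STK11, up to 4 called genes per list and comparison with the lowest adjusted p, the 5 genes most like STING1, RIGI and TLR3, and others given with values. The fit was run on simulated data with independent errors, a check of the code and not of the calls reported here. Alternatives are those in the closing section. Leaving out the arrays whose STK11 level opposes the label, or those low in cell cycle genes, was added after seeing the data. Promoter motifs were matched with Python 3.11.15.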

Additional observations from a re-analysis of the deposited data

How the results depend on the processing

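The number of the 9 members called was 1 in A549 and 1 in H2122 for LKB1 minus controls, 2 for the mean over lines and 0 for the difference between lines. It was 1 against K78I and 1 against pBABE in A549, and 1 against K78I and 2 against pBABE in H2122. With groups from source names, the count was 0 in H2122 against both controls, against K78I and against pBABE, 0 over both lines, and 0 against K78I and against pBABE in A549. Without the 3 arrays in conflict it was 0 for each of the 3 H2122 comparisons. Array weights gave 5 in A549 (STING1, CGAS, RIGI, IFIH1 and MAVS) and 4 over both lines. They gave 1 for the difference between lines (TLR3), 3 for A549 against pBABE and 1 for H2122 against pBABE. Without the controls low in cell cycle genes, chosen after seeing the data, it was 2 in A549, 4 over both lines and 1 for H2122 against pBABE. Median centring, and a fit per line, gave 0 for H2122 against K78I and 1 against pBABE, and quantile normalization and the trended robust prior gave 1 against pBABE. Leaving out each array in turn gave 1 in A549 and 1 in H2122 against both controls, 0 to 2 for A549 against K78I, 0 to 1 for A549 against pBABE, 0 to 1 for H2122 against K78I and 0 to 2 for H2122 against pBABE. With source names 2 called genes reversed: IFI44 in H2122 at -0.056 (adjusted p 0.968) and RIGI for H2122 LKB1 minus pBABE at -0.046 (adjusted p 0.954). Causes were not tested. Leaving out the dimmest 30% of genes, averaging probe sets per gene, and leaving out the arrays whose STK11 opposes the label kept every member count within 1.5 times. The number of all genes called moved with the settings too, so the member counts are to be read beside it. In A549 it was 1515 in the main fit and 3844 with array weights. In H2122 it was 1308 in the main fit, 422 without the 3 arrays in conflict and 1 with source names.

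Replicate numbers recur between groups, but same-numbered arrays deviated with a correlation from -0.64 to 0.42 over 16 pairs, with a median of 0.17 and 10 above 0.1, and differently numbered arrays had a median of -0.06 over 32 pairs, 7 above 0.1. In H2122 6 of 7 same-numbered pairs were above 0.1 and the lowest was 0.06, with a median of 0.28. Of 14 differently numbered H2122 pairs 1 was above 0.1, with a median of -0.12. This is a hint of shared replicates in H2122 from the data and not from the design, and the main fit did not allow for it. As not every pair passed 0.1, the numbers were not taken to pair the arrays. With a replicate block 2 members were called for A549 against K78I (TLR3 added, adjusted p 0.0377) and 1 for H2122 against pBABE (RIGI lost, 0.088), and the line differences of TBK1 (adjusted p 0.0723) and IRF7 (0.137) were lost.

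Over all genes, 1515 were called in A549 and 1308 in H2122. Alternatives gave 715 to 3844 in A549 and 1 to 2345 in H2122, the lowest H2122 count with source names and the highest A549 count with array weights. Median centring changed the split of higher and lower calls to 774 and 718 in A549 (985 and 530 as deposited). In H2122 the split became 780 and 508 (896 and 412 as deposited), so the number called in each direction depends on scaling.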
